A study of Homo sapiens with 12 samples.

Results

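The genes described here encode the nuclear part of the mitochondrial respiratory chain. They were chosen by symbol: names beginning with NDUFA, NDUFB, NDUFC, NDUFS or NDUFV and ending in digits, SDHA to SDHD, names beginning with UQCR, CYC1, the COX4 to COX8 subunits, and names beginning with ATP5. Of 85 such symbols among 19907 genes, 83 had a normalized read count of at least 10 in 3 or more of the 12 libraries and were kept. Assigned by symbol alone, they comprised 37 genes of complex I, 4 of complex II, 11 of complex III, 13 of complex IV and 18 of complex V. The cells were MDA-MB-231, a human triple-negative breast cancer line, expressing the glucocorticoid receptor either with a serine-to-alanine substitution (S134A-GR) or as wild type (WT-GR). The groups were S134A-GR cells given 1 µM dexamethasone (Dex, a synthetic glucocorticoid) for 6 h, S134A-GR cells given vehicle, WT-GR cells given Dex and WT-GR cells given vehicle. All 4 groups had first been serum-starved for 18 h in IMEM with 1% DCC, and each had 3 libraries. The labels do not say how the genotypes were made, whether a genotype is 1 clone or several, or whether libraries of the same group are separate cultures. The p-values therefore reflect the spread among these 12 libraries, and that spread may be technical.

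The respiratory chain passes electrons from NADH and succinate to oxygen in the inner mitochondrial membrane. Complex I takes electrons from NADH and complex II takes them from succinate. Both hand them to ubiquinone, and complex III moves them on to cytochrome c, from which complex IV reduces oxygen. Complexes I, III and IV pump protons, and complex V, the ATP synthase, uses the proton gradient to make ATP. All subunits of complex II and most of those of the other complexes are encoded in the nucleus, and the genes are spread over nearly all chromosomes. Mitochondrially encoded subunits were not analysed here. Transcription factors of the NRF-1, ETS (GABPA), YY1 and ERR families and the coactivators of the PGC-1 family are known to act on many of these genes. The study concerns metabolic change under the receptor phosphorylated at this serine, and the values below give the mRNA levels of this set in its 4 groups.

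The libraries held 56.4 to 100.6 M recovered reads (M, mega). NR3C1, the gene of the receptor, had 7469 to 8354 normalized reads in S134A-GR Dex, 8516 to 8971 in S134A-GR vehicle, 8707 to 10247 in WT-GR Dex and 10444 to 12729 in WT-GR vehicle. A gene-level count cannot check the substitution, nor separate an introduced from a resident receptor if both are present. FKBP5, a known glucocorticoid-induced gene, had 37722 to 37962 in S134A-GR Dex against 3732 to 3767 in S134A-GR vehicle, and 49104 to 54595 in WT-GR Dex against 3785 to 4106 in WT-GR vehicle. All 8 genes listed as markers of MDA-MB-231 were high, among them VIM at 366000 to 431000, while ESR1 did not exceed 5.66 and PGR was not found. Of the 7 genes found among those listed as low, ERBB2 (8860 to 12000) and KRT18 (28000 to 41700) were nevertheless well expressed. GATA3 (786 to 1570), EPCAM (315 to 1090) and FOXA1 (137 to 303) were also detected, while CDH1 did not exceed 17.1. Of fibroblast markers, COL1A1 (814 to 2370) and PDGFRB (1630 to 2870) were expressed. COL3A1 and DCN were low, with group means of 3.48 to 9.5 and 0.628 to 13.6. Of blood cell markers, PTPRC stayed at or below 18.3 and CD68, which this line also expresses, lay between 26700 and 42900. WT-GR Dex replicates 2 and 3 stood apart, with 193 and 210 genes counted by a single read where every other library had 352 to 409 such genes. The names in the Dex files were displaced and were replaced by those of the vehicle files by line order, so every Dex value rests on that repair.

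The set as a whole was abundant and nearly constant in its share of the transcriptome, which lay between 0.917 and 1.01% of all normalized reads in each of the 12 libraries. Values were scaled by a size factor per library, so fewer cells and less RNA per cell cannot be told apart. ATP5B, the catalytic beta subunit of the ATP synthase, had 87405 to 107340 normalized reads. At the other end, NDUFA3, an accessory subunit of complex I, had 9.51, 9.63 and 5.65 reads with Dex and 19.8, 6.08 and 1.78 with vehicle in S134A-GR cells. In WT-GR cells it had 8.54, 219.6 and 66.1 with Dex and 32.6, 144.8 and 5.26 with vehicle, so that the groups overlapped. NDUFA6, COX7A1 and the pseudogene ATP5EP2 each had fewer than 50 reads in every library. None of these 4 genes was called in any comparison. Why the counts of NDUFA3 and NDUFA6 were this low was not tested, and a low count does not by itself mean little mRNA. Below the minimum were ATP5L2, with at most 5.3 reads, and COX6B2, the testis isoform of COX6B1, with at most 18.3 reads and only 1 library at 10 or more. Of the 83 genes, 6 carry the name pattern but are not established subunits, and they stay in the counts by complex. ATP5S is an accessory factor of the ATP synthase, ATP5SL is an assembly factor of complex I and COX7A2L is a supercomplex factor, while ATP5EP2, UQCRBP1 and UQCRHL are copies of subunit genes elsewhere in the genome. Many of these short genes have processed copies, so the counts of a gene and its copies may have been split in a way not given in the sources used here. In GENCODE v29, 44 of the 83 share exonic bases with another gene, and 1 of them, ATP5I, shares more than 50% (61.6%, with MYL5 on the opposite strand). Without a stated strand setting, reads of such pairs cannot be told apart.

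**Figure D1:**
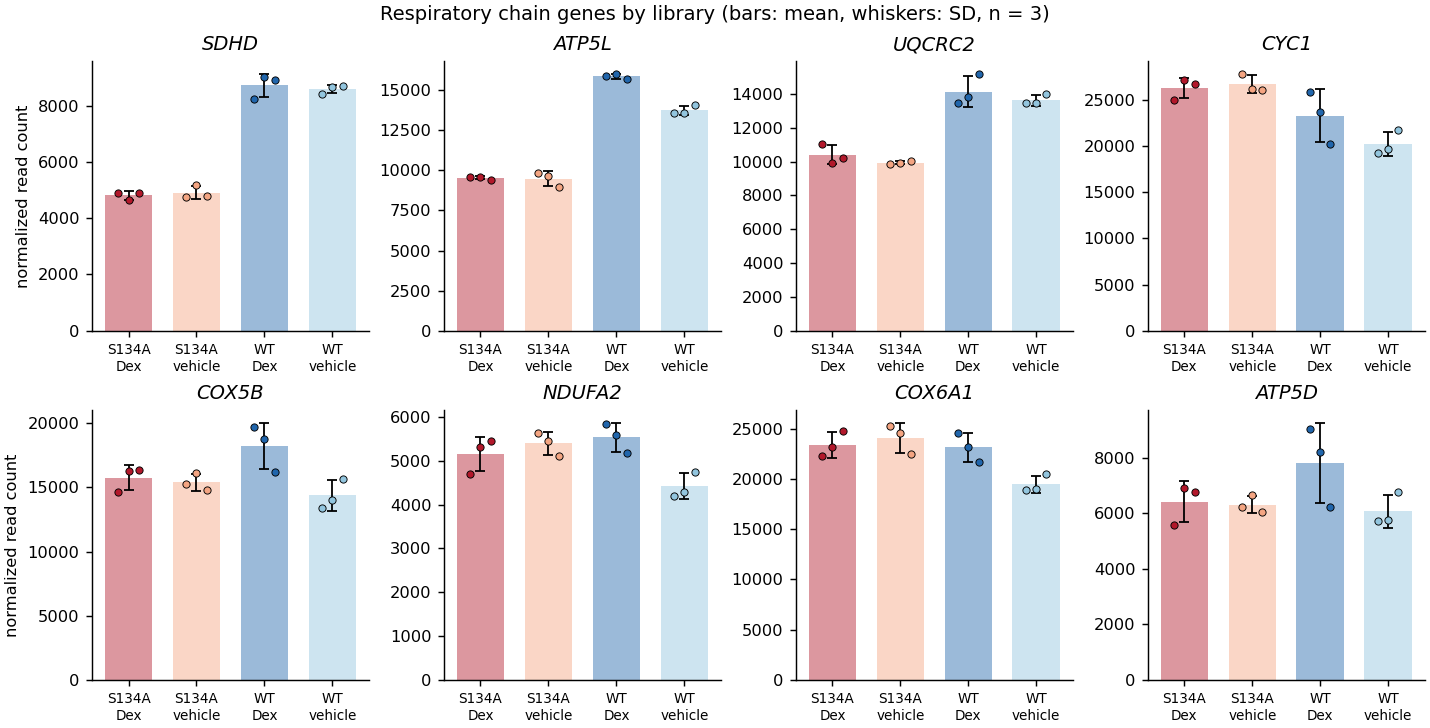
Normalized read counts of 8 respiratory chain genes in the 12 libraries; bars are group means, whiskers are the SD of 3 libraries and points are single libraries. SDHD, ATP5L and UQCRC2 lie lower in all 6 S134A-GR libraries than in all 6 WT-GR libraries, while COX5B, NDUFA2 and COX6A1 lie higher in the 3 WT-GR Dex than in the 3 WT-GR vehicle libraries and the ATP5D libraries of those groups overlap.

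Promoter sequence is shown for 4 genes to which the comparisons return: SDHD and ATP5L, with the largest called differences between genotypes in Dex, and COX5B and COX6A1, which rose with Dex in WT-GR cells. Each line gives the RefSeq sequence (GRCh38.p14) from 250 bases before to 50 bases after the gene's start, 5′ to 3′ on the gene's strand, which is the plus strand in all 4. Capitals mark matches to CCGGAAG (an ETS motif, bound by factors such as GABPA) or GCGCATGCG (NRF-1) on either strand, and the NRF-1 matches of SDHD overlap, as this motif is nearly palindromic. The windows are chr11:112086623-112086922 for SDHD, chr11:118401356-118401655 for ATP5L, chr2:97645812-97646111 for COX5B and chr12:120437863-120438162 for COX6A1.
SDHD: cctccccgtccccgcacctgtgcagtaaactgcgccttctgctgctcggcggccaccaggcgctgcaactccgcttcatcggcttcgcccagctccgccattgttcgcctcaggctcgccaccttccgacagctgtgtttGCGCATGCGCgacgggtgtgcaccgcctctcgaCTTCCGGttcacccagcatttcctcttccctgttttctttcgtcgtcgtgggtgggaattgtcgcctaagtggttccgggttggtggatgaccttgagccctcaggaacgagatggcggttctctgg
ATP5L: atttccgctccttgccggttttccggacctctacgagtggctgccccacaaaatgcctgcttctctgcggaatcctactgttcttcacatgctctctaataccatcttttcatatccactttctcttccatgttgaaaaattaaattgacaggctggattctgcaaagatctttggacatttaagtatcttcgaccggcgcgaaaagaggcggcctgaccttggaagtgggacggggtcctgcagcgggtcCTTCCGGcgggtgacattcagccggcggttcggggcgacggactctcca
COX5B: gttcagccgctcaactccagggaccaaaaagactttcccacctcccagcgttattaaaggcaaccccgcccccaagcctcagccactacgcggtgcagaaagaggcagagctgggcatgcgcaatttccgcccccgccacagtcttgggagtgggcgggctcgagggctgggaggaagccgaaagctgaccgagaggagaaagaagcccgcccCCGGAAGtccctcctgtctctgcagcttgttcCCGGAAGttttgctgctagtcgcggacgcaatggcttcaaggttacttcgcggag
COX6A1: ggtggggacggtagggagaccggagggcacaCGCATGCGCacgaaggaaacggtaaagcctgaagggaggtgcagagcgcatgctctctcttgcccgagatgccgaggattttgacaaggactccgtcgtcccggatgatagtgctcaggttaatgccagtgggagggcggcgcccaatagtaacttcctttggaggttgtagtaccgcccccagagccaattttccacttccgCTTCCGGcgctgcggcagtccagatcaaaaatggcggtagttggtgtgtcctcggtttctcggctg

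A promoter was found in the RefSeq table for 64 of the 83 genes. The ETS motif CCGGAAG was present in 19 of the 64 (29.7%), against 10.7% of all 27305 promoters of the same length. The NRF-1 motif GCGCATGCG was present in 10 (15.6%, against 2.1% of all promoters). The YY1 motif AAGATGGCG was present in 8 (12.5%, against 1.85%). The Sp1 motif GGGCGG was present in 38 (59.4%, against 44.6%) and the ERR motif TCAAGGTCA in 1 (1.56%, against 0.359%), which was SDHD. The hexamer AGAACA, recognised by the glucocorticoid receptor, was present in 7 (10.9%, against 14.9%), and no promoter of the set held that hexamer paired with its reverse complement across 3 bases, with up to 1 mismatch (0.176% of all promoters). Both strands were searched for every motif. The 27305 promoters include those of genes not expressed here, while the set had passed a minimum count, so the backgrounds are unlike. Among tested genes with a promoter, 2119 held the ETS motif and 9845 did not. The other motifs were not counted over tested genes alone. Median GC content of the promoters was 60.7% in the set and 58.3% over all promoters. A match describes letters in this window and not binding.

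Dex raised a minority of the set in WT-GR cells and left no called change in S134A-GR cells. In S134A-GR cells 0 of the 83 genes passed the threshold (limma with a mean-variance trend, Benjamini-Hochberg adjusted p below 0.05 over all 15957 genes tested), where 15.7% of all genes did (7.99% higher and 7.76% lower). At an unadjusted p below 0.05 there were 2 genes, DESeq2 called 2 and edgeR called 0. The median log2 change was -0.0149, against -0.0159 over all genes. In WT-GR cells 18 of the 83 genes (21.7%) rose and 0 fell. The background there was 27.9% of all genes called, 13.9% higher and 14.0% lower. The median log2 change of the set in WT-GR cells was 0.112, against -0.0198 over all genes, and 68 of 83 genes had a positive change.

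**Figure D2:**
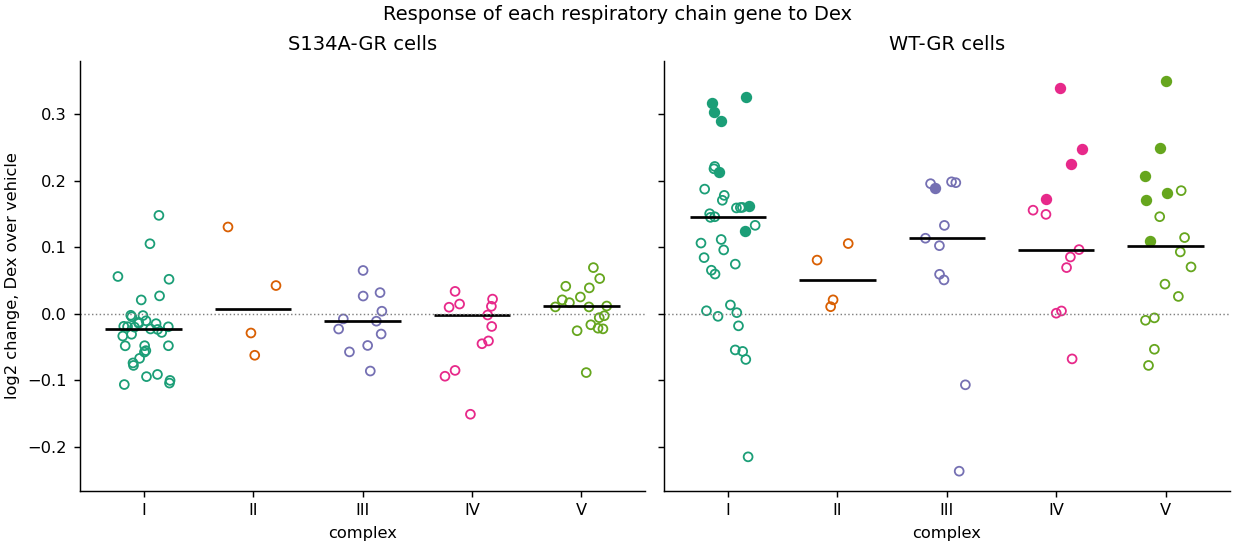
Log2 change of each gene with Dex over vehicle (limma, log2(value + 1) scale) by complex, in S134A-GR cells on the left and WT-GR cells on the right; filled points passed the adjusted threshold, black lines are medians over all genes of a complex, and NDUFA3, NDUFA6, COX7A1 and ATP5EP2, with counts too low to place, are not drawn as points. Filled points number 18 in WT-GR cells, where they reach 0.35, and 0 in S134A-GR cells, and complex II has none in either.

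In complex I, 7 of 37 genes rose with Dex in WT-GR cells. NDUFA2, an accessory subunit of the arm that binds NADH, had 5832, 5597 and 5185 reads in WT-GR Dex against 4206, 4288 and 4756 in WT-GR vehicle. Every Dex library was above every vehicle library, and the log2 change was 0.33 ± 0.07 (SE; limma adjusted p = 0.00367). In S134A-GR cells NDUFA2 had 4707, 5319 and 5450 with Dex against 5637, 5447 and 5111 with vehicle, and these groups overlapped. NDUFA13, an accessory subunit first described as GRIM-19, had 12295, 10992 and 10382 in WT-GR Dex against 8597, 8610 and 9787 in WT-GR vehicle (log2 change 0.32 ± 0.08, limma adjusted p = 0.0115). NDUFA11 changed by 0.30 ± 0.09 (limma adjusted p = 0.0248), but its lowest WT-GR Dex library, at 10248, lay under its highest vehicle library, at 10349. NDUFB7, a subunit of the membrane arm, also overlapped, with 7035, 6397 and 5842 in WT-GR Dex against 5017, 4879 and 5879 in WT-GR vehicle.

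Several core subunits of complex I, which carry electrons or form the arm that does so, were also examined. NDUFS3, a core subunit of that arm, rose in WT-GR cells and changed by 0.21 ± 0.05 (limma adjusted p = 0.00968), with 4831, 5078 and 4742 in WT-GR Dex against 4087, 4127 and 4428 in WT-GR vehicle. NDUFV1, which holds the flavin, and NDUFV2 did not pass but were close to the threshold (limma adjusted p = 0.0502 and 0.0507). NDUFS1 had a change of -0.05, NDUFS7 of 0.22 and NDUFS8 of 0.22, and none of these passed. NDUFA1, an accessory subunit, also rose (0.16, limma adjusted p = 0.0403).

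None of the 4 complex II genes passed the threshold for Dex in either genotype. The smallest adjusted p was 0.0742 for SDHA, the flavoprotein, in WT-GR cells, with 20812, 19514 and 19415 reads in Dex against 18541, 18190 and 18768 in vehicle. In S134A-GR cells the smallest was 0.0608 for SDHB, the iron-sulphur subunit, with 7531, 7338 and 7423 in Dex against 6821, 6748 and 6792 in vehicle (limma in both cases). The 3 libraries with Dex were above the 3 with vehicle in each of these pairs. SDHD, a membrane anchor of the complex, had log2 changes of -0.03 in S134A-GR cells and 0.02 in WT-GR cells.

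In complex III, 1 of 11 genes rose in WT-GR cells. This was UQCRQ, a small subunit that binds next to cytochrome b, with 9171, 8862 and 9709 in WT-GR Dex against 7841, 7804 and 8688 in WT-GR vehicle (0.19 ± 0.05, limma adjusted p = 0.0204). CYC1, the haem-carrying cytochrome c1, had 25907, 23701 and 20208 in WT-GR Dex against 19248, 19694 and 21719 in WT-GR vehicle, a change of 0.20 ± 0.08 that did not pass (limma adjusted p = 0.0701). The Rieske iron-sulphur protein UQCRFS1 had a change of 0.06 and the core protein UQCRC1 one of 0.10, and neither passed.

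In complex IV, 4 of 13 genes rose in WT-GR cells. COX5B, which binds zinc on the matrix side, had 19708, 18748 and 16203 in WT-GR Dex against 13426, 14013 and 15694 in WT-GR vehicle. The groups did not overlap, and the log2 change was 0.34 ± 0.08 (limma adjusted p = 0.00494). In S134A-GR cells COX5B had 14665, 16274 and 16360 with Dex against 15288, 16098 and 14791 with vehicle. COX6A1, the isoform outside striated muscle, had 24596, 23143 and 21692 in WT-GR Dex against 18922, 19039 and 20444 in WT-GR vehicle (0.25 ± 0.06, limma adjusted p = 0.00822). COX6B1, which faces the intermembrane space, changed by 0.23 ± 0.07 (limma adjusted p = 0.0361) with overlapping libraries, and COX4I1, the main regulatory subunit, by 0.17 ± 0.06 (limma adjusted p = 0.0435).

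In complex V, 6 of 18 genes rose in WT-GR cells. ATP5D, the delta subunit of the central stalk, had the largest fitted change of the 18 called genes (0.35 ± 0.12, limma adjusted p = 0.0436), but its libraries overlapped, with 9016, 8198 and 6224 in WT-GR Dex against 5719, 5745 and 6749 in WT-GR vehicle. ATP5L (now ATP5MG), the g subunit at the interface of ATP synthase dimers, had the smallest adjusted p of the set. It had 15870, 16018 and 15716 in WT-GR Dex against 13558, 13582 and 14077 in WT-GR vehicle (0.21 ± 0.04, limma adjusted p = 0.00263). In S134A-GR cells ATP5L had 9609, 9607 and 9427 with Dex against 9866, 9650 and 8946 with vehicle. ATP5G3 and ATP5G2, which encode the c subunit of the rotor ring, changed by 0.17 and 0.18 (limma adjusted p = 0.0054 and 0.0312). ATP5I changed by 0.25 and the catalytic ATP5B by 0.11 (limma adjusted p = 0.0288 and 0.0391), while ATP5A1 and ATP5C1, the alpha and gamma subunits, had changes of 0.04 and -0.01 that did not pass. The 18 called changes ran from 0.11 to 0.351.

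The count of 18 depended on single WT-GR libraries. It was 8, 10 and 37 (35 higher and 2 lower) without WT-GR Dex replicates 1, 2 and 3, and 7, 6 and 29 without WT-GR vehicle replicates 1, 2 and 3. Without WT-GR Dex replicates 2 and 3 together it was 32. Of the 18 genes, 4 passed under all 23 alternative settings: ATP5L, COX5B, COX6A1 and NDUFA2. The median log2 deviation of the 83 genes from their means over the 12 libraries was 0.0994, 0.104 and 0.0531 in WT-GR Dex and -0.0813, -0.0669 and 0.0516 in WT-GR vehicle. WT-GR vehicle replicate 3 thus lay near WT-GR Dex replicate 3 and above the other vehicle libraries. In S134A-GR Dex the medians were -0.104, -0.00316 and 0.00182, and in S134A-GR vehicle -0.00718, -0.00187 and -0.0743.

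**Figure D3:**
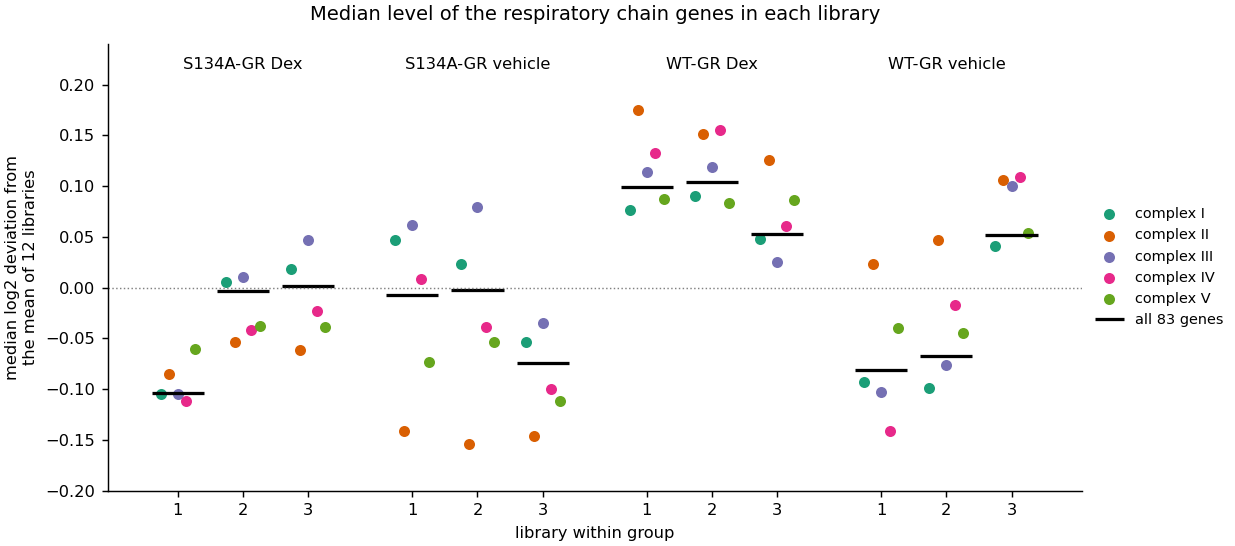
Median over the genes of each complex (points) and over all 83 genes (lines) of the log2 deviation from each gene's mean over the 12 libraries, for each library. WT-GR vehicle replicate 3 lies at 0.0516, close to WT-GR Dex replicate 3 at 0.0531 and above the other WT-GR vehicle libraries at -0.0813 and -0.0669.

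The GC content of the transcripts moved with the response to Dex in WT-GR cells. Across the 83 genes the Spearman correlation of the log2 change with transcript GC content was -0.125 in S134A-GR cells and 0.664 in WT-GR cells. Across the 15350 tested genes with an annotated transcript it was -0.083 and 0.352 in the same order, given as descriptions, since all points share the same libraries. The 18 genes that rose had a median GC content of 54.7%, the other 65 one of 47.4% and all genes 49.5%. With all genes split into 10 bins of 1535 by GC content, in the highest bin, at a median of 64.8%, the median change of all genes in WT-GR cells was 0.144 and that of the 5 members in it was 0.222. In the third lowest bin, at 42.8%, all genes had -0.0912 and the 13 members there -0.000473. The correlation of a library's deviation with GC content over all genes also differed between replicates, at 0.3095, 0.1038 and -0.2064 in WT-GR Dex and -0.3248, -0.3179 and -0.1756 in WT-GR vehicle. After removal of each library's GC trend, a step added after the data were seen, 15 genes were called in WT-GR cells, of which 9 were among the 18, and 28.7% of all genes were called. Genes such as ATP5B, ATP5G2, ATP5I, COX4I1, COX6B1, NDUFA1, NDUFB7 and UQCRQ no longer passed, and ATP5E, COX7B, NDUFA4, NDUFB5, NDUFV2 and SDHD did. The median change of the set was then 0.0832, against -0.014 over all genes. In S134A-GR cells 3 genes were called after this step: ATP5B, NDUFV2 and SDHB.

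**Figure D4:**
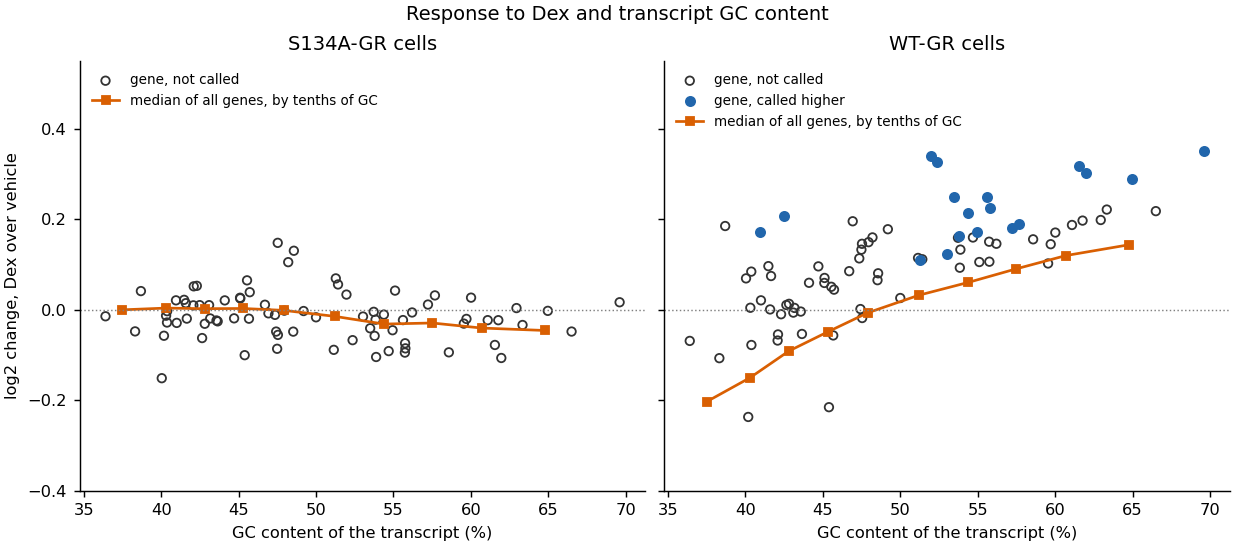
Log2 change with Dex over vehicle against the GC content of the transcript for the respiratory chain genes (circles, filled where called) and the median of all tested genes in 10 equal bins of GC content (squares), in S134A-GR cells on the left and WT-GR cells on the right; the 4 genes with very low counts are not drawn. The median of all genes climbs with GC content to 0.144 in WT-GR cells and lies between -0.0457 and 0.00385 in S134A-GR cells.

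The ETS motif marked in the promoters above was common among the genes that rose. Of the 14 of these with a promoter, 11 held it, 9 held the Sp1 motif, 3 the NRF-1 motif and 1 the hexamer AGAACA. None held the YY1, ERR or paired hexamer motif. Only the ETS motif was also set beside the calls of all genes. The split of the set by this motif uses the same calls as the count of 11 in 14, so it is not separate support. Of the 64 genes with a promoter, 19 held the ETS motif, and 11 of these 19 (57.9%) rose with Dex in WT-GR cells, against 3 of the 45 without it (6.67%). They were ATP5I, ATP5L, COX4I1, COX5B, COX6A1, COX6B1, NDUFA1, NDUFA13, NDUFB7, NDUFS3 and UQCRQ. Over all tested genes with a promoter, 334 of the 2119 with the motif (15.8%) and 1477 of the 9845 without it were called higher. Transcripts of the 19 genes also had a higher GC content, at a median of 53.8% against 48.0% for the 45. After removal of each library's GC trend, ATP5I, COX4I1, COX6B1, NDUFA1, NDUFB7 and UQCRQ of the 11 no longer passed. Of the 3 without the motif, ATP5G2 no longer passed. Among genes with a promoter that then passed instead, SDHD held the motif and ATP5E, COX7B and NDUFV2 did not. The part of GC content in this split was not tested.

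Genes that work beside the subunits were counted in lists of their own. Among 49 assembly factors, 1 rose and 2 fell with Dex in S134A-GR cells (6.12% called, against 15.7% of all genes). In WT-GR cells 6 rose and 2 fell (16.3% called, against 27.9% of all genes). COA7 was the one that rose in S134A-GR cells (0.28, limma adjusted p = 0.00477). COA3, a complex IV assembly factor, changed by 0.28 in WT-GR cells (limma adjusted p = 0.000379), with 4990 ± 94.4 reads in WT-GR Dex and 4120 ± 152 in WT-GR vehicle (SD, n = 3 each). UQCC1, a complex III factor, fell in both genotypes, by 0.23 in S134A-GR and by 0.12 in WT-GR cells on the log2 scale (limma adjusted p = 0.000354 and 0.018). Of 15 other electron-transfer genes, 0 rose and 1 fell in S134A-GR cells (6.67% called), and 2 rose and 3 fell in WT-GR cells (33.3% called). CYCS, which encodes cytochrome c, fell in WT-GR cells with a mean of 6594 reads in Dex and 7819 in vehicle (log2 change -0.25, limma adjusted p = 0.000964). COQ10B, of the coenzyme Q pathway, fell to 1492 ± 164 in WT-GR Dex, against 2016 ± 42.4 in WT-GR vehicle (limma adjusted p = 0.00212).

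Of 16 regulators of mitochondrial biogenesis, 3 rose in S134A-GR cells, 6 (37.5% called) rose in WT-GR cells and 0 fell in either. Over all genes, 7.99% were called higher in S134A-GR and 13.9% in WT-GR cells. PPARGC1A, the coactivator PGC-1 alpha, showed the largest change of these genes and rose in both genotypes. S134A-GR cells had 538.4 ± 9.02 reads with Dex and 203.3 ± 4.1 with vehicle (SD, n = 3 each). WT-GR cells had 560.0 ± 34.1 with Dex and 198.7 ± 42.5 with vehicle. The log2 changes were 1.40 and 1.51 in the same order (limma adjusted p = 3.58e-06 and 1.8e-06), and their difference of -0.11 did not pass (limma adjusted p = 0.791). C10orf2, the mitochondrial helicase Twinkle, changed by 0.30 in each genotype (limma adjusted p = 0.000898 and 0.000762). PPRC1, a PGC-1-related coactivator, changed by 0.20 and 0.19 (limma adjusted p = 0.026 and 0.0226). ESRRA, the receptor ERR alpha, changed by 0.38 in WT-GR cells (limma adjusted p = 0.00459) and by 0.20 in S134A-GR cells, where it did not pass (limma adjusted p = 0.125). GABPA, TFAM and NRF1 were not called in either genotype, with changes between -0.15 and 0.01. Of 82 cytosolic ribosomal protein genes, 0 were called in S134A-GR cells, while 39 rose and 1 fell in WT-GR cells (48.8% called, against 27.9% of all genes; median change 0.159). Of 77 mitochondrial ones, 2 rose and 3 fell in S134A-GR cells, and 16 rose and 4 fell in WT-GR cells (median 0.11).

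The difference between the genotypes in the response to Dex was tested directly. For none of the 83 genes did the S134A-GR response differ from the WT-GR response at the adjusted threshold (limma, 0 of 83, against 0.414% of all genes). There were 17 genes at an unadjusted p below 0.05, DESeq2 called 2, both with the lower response in S134A-GR cells, and edgeR called 0. The median difference of responses was -0.125, and 66 of the 83 genes had a negative one. NDUFA2 had the smallest adjusted p, with a difference of -0.39 ± 0.10 (limma adjusted p = 0.111). COX6A1 had -0.29 ± 0.09 (limma adjusted p = 0.154) and ATP5L -0.20 ± 0.06 (limma adjusted p = 0.164). Without WT-GR Dex replicate 3, 11 genes were called and all had the lower response in S134A-GR cells. After removal of the GC trends 0 were called. Across the 83 genes this difference correlated with transcript GC content at a Spearman rho of -0.645, and across all genes at -0.494.

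The genotypes differed in the set whether or not Dex was given. In Dex, 43 of the 83 genes (51.8%) differed, 6 higher and 37 lower in S134A-GR cells, against a background of 49.7% of all genes (23.4% higher and 26.3% lower). In vehicle, 36 (43.4%) differed, 16 higher and 20 lower, against 50.5% of all genes (23.8% higher and 26.7% lower). With both directions pooled, the shares called were thus near those of all genes. By direction they were not in Dex, where 6 were higher and 37 lower. The median log2 difference of the set was -0.13 in Dex and 0.0555 in vehicle, against 0.0109 and 0.0107 over all genes. These directions depended on the scaling: with library-size scaling only, 18 genes were higher and 21 lower in Dex, and 26 higher and 13 lower in vehicle, while the median over all genes moved to 0.115 and 0.0858. After removal of each library's GC trend, the median of the set was -0.124 in Dex and -0.0141 in vehicle. Then 49 and 43 genes were called, against 57.8 and 55.3% of all genes. Before that step, the Spearman correlation of the difference with transcript GC content was -0.0598 in Dex and 0.25 in vehicle across the set. Across all genes it was 0.00221 and 0.27. The comparisons in Dex and in vehicle use no library in common. All 6 genes called higher in Dex were among the 16 higher in vehicle (37.5% of those). Of the 37 called lower in Dex, 19 (51.4%) were called lower in vehicle too, where 20 were.

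Complex II held the largest called difference. SDHD had 4883, 4637 and 4900 reads in S134A-GR Dex against 8242, 9003 and 8890 in WT-GR Dex, and 4757, 5179 and 4782 in S134A-GR vehicle against 8411, 8648 and 8682 in WT-GR vehicle. All S134A-GR libraries were below all WT-GR libraries. The log2 differences were -0.86 ± 0.05 in Dex and -0.81 ± 0.05 in vehicle (limma adjusted p = 2.17e-08 and 3.31e-08). The promoter of SDHD printed above was one with both an NRF-1 and an ETS match. SDHB had 7531, 7338 and 7423 in S134A-GR Dex against 9391, 9684 and 9406 in WT-GR Dex, and differed by -0.35 in Dex and -0.40 in vehicle (limma adjusted p = 1.91e-05 and 5.72e-06). SDHA differed by -0.07 and -0.01 and was not called. SDHC, the other membrane anchor, was higher in vehicle (0.13, limma adjusted p = 0.0268) and had a difference of 0.06 in Dex that did not pass. The 4 subunits of complex II, which assemble in equal numbers, thus showed unequal differences.

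In complex V, 8 of 18 genes were lower and 2 higher in S134A-GR cells, both in Dex and in vehicle. The 8 include ATP5SL, an assembly factor of complex I counted here by its symbol. ATP5L differed by -0.73 ± 0.04 in Dex and by -0.54 ± 0.04 in vehicle (limma adjusted p = 2e-08 and 3.28e-07), with no overlap between the genotypes. ATP5G3 differed by -0.46 and -0.31, with 13484, 13899 and 13875 in S134A-GR Dex against 18934, 19062 and 18687 in WT-GR Dex. The peripheral stalk genes ATP5F1, ATP5J and ATP5O were also lower, with log2 differences of -0.36 to -0.28 in Dex and -0.32 to -0.30 in vehicle. ATP5H, another peripheral stalk gene, was not called, with 0.0069 in Dex and 0.05 in vehicle (limma adjusted p = 0.937 and 0.511). The higher genes were ATP5I, with 0.28 in Dex and 0.55 in vehicle, and ATP5C1, with 0.21 and 0.15. The catalytic ATP5A1 and ATP5B were slightly lower, at -0.12 and -0.17 in Dex and -0.11 and -0.13 in vehicle.

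The genes ATP5G1, ATP5G2 and ATP5G3 encode the same mature c subunit and differ in their import sequences, so their relative counts give the make-up of that mRNA pool. Their summed counts were 48097 to 50279 in S134A-GR Dex, 48143 to 50289 in S134A-GR vehicle, 55264 to 58654 in WT-GR Dex and 48740 to 54157 in WT-GR vehicle. ATP5G3 made up 27.6 to 28.2% of the sum in S134A-GR Dex and 27.2 to 28.4% in S134A-GR vehicle, against 32.3 to 34.3% in WT-GR Dex and 32.3 to 33.8% in WT-GR vehicle. ATP5G2 made up 51.5 to 53.3% and 51.5 to 52.9% in the S134A-GR groups, against 47.4 to 49.8% and 47.0 to 48.9% in the WT-GR groups. The genotypes did not overlap in either share, and the groups with and without Dex did within each genotype. The transcripts of these genes differ in length, so the shares are shares of reads and not of molecules.

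In complex I, 15 of 37 genes were lower and 3 higher in S134A-GR Dex than in WT-GR Dex, and 6 were lower and 7 higher in vehicle. NDUFS8, an iron-sulphur subunit, had 5568, 6755 and 6972 in S134A-GR Dex against 10957, 9774 and 8352 in WT-GR Dex (-0.59 ± 0.10, limma adjusted p = 0.000424), and differed by -0.33 in vehicle. NDUFC2, in the membrane arm, had 473.4, 515.5 and 544.4 in S134A-GR Dex against 659.0, 724.7 and 728.2 in WT-GR Dex, and differed by -0.46 in Dex and -0.58 in vehicle. NDUFC1, its partner in that arm, differed the other way, by 0.33 in Dex and 0.51 in vehicle (limma adjusted p = 0.00487 and 0.000189). NDUFS1, the largest subunit of the electron-input arm, differed by -0.35 and -0.45, and NDUFA8, an accessory subunit, by 0.38 and 0.44. NDUFA1 was higher by 0.18 and 0.40. It shares 44.5% of its exonic bases with RNF113A on the opposite strand.

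In complex III, 4 of 11 genes were lower and 0 higher in S134A-GR cells with Dex, and 1 was lower and 2 higher in vehicle. The 4 include the gene copy UQCRHL. UQCRC2, a core protein, had 11038, 9933 and 10233 in S134A-GR Dex against 13442, 13805 and 15183 in WT-GR Dex (-0.44 ± 0.05, limma adjusted p = 1.22e-05) and differed by -0.46 in vehicle. UQCRC1, its partner core protein, differed by -0.27 in Dex (limma adjusted p = 0.00129) and by -0.14 in vehicle, where it did not pass (limma adjusted p = 0.0551). CYC1 had 27821, 26190 and 26119 in S134A-GR vehicle against 19248, 19694 and 21719 in WT-GR vehicle (0.40 ± 0.08, limma adjusted p = 0.000631), and its difference of 0.18 in Dex did not pass (limma adjusted p = 0.062).

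In complex IV, 8 of 13 genes were lower and 1 higher with Dex, and 3 were lower and 4 higher in vehicle. COX8A had 14474, 16765 and 16013 in S134A-GR Dex against 24474, 23058 and 19644 in WT-GR Dex (-0.50 ± 0.08, limma adjusted p = 0.000133), and differed by -0.25 in vehicle. COX7A2L differed by -0.37 and -0.35, and COX7C by -0.29 and -0.31. COX6C was higher by 0.25 in Dex and 0.17 in vehicle. COX4I1 and COX6A1 were higher in vehicle, by 0.30 and 0.31, and had differences of 0.08 and 0.02 in Dex that did not pass. COX5B was lower in S134A-GR Dex (-0.21, limma adjusted p = 0.0375), although the libraries overlapped.

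Isoforms of complex IV could be compared per kilobase of transcript. COX7A1, the striated muscle form, had 12.2 ± 2.75 reads per kilobase in S134A-GR Dex, 11.1 ± 8.62 in S134A-GR vehicle, 5.44 ± 3.35 in WT-GR Dex and 8.82 ± 6.81 in WT-GR vehicle, against 12000 to 13800 for COX7A2 as group means (SD, n = 3). COX7B2 had group means of 1350 to 1730 reads per kilobase against 3820 to 4550 for COX7B. These values depend on the annotated transcript chosen for each gene, of 542 bases for COX7B2 and 2471 bases for COX7B. Before division by length, the group means were 734.4 to 936.8 reads for COX7B2 and 9447 to 11250 for COX7B. COX7B2 was lower in S134A-GR Dex than in WT-GR Dex (-0.35, limma adjusted p = 0.00752). The muscle and lung isoform genes COX4I2 and COX6A2 and the testis isoform COX8C were not among the genes tested.

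Differences between the genotypes were compared with those of neighbouring genes. For each member, the median log2 difference was taken over all other tested genes within 5 Mb of its start, with at least 15 such genes for every member. The Spearman correlation between a gene's own difference and that of its neighbours was 0.606 in Dex and 0.549 in vehicle over the 83 genes. Without chromosomes 11 and 13 it was 0.587 and 0.496 over 75 genes. Windows of 2 Mb gave 0.624 and 0.586, and windows of 10 Mb gave 0.649 and 0.575. Neighbouring members share some of these genes, and the values are descriptions.

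Several of the largest called differences lay in regions whose other genes differed in the same direction. SDHD, NDUFC2 and ATP5L lie on the long arm of chromosome 11, at GRCh38 positions 112.1, 78.07 and 118.4 Mb. The neighbours of SDHD had a median difference of -0.569 in Dex and -0.624 in vehicle, those of NDUFC2 -0.621 and -0.608, and those of ATP5L -0.614 and -0.588. Of the 309 tested genes of chromosome 11 from 70 Mb on, 235 were lower and 14 higher in S134A-GR Dex, and 232 lower and 8 higher in S134A-GR vehicle. SDHD lay below its neighbours' median and NDUFC2 above it in both conditions. ATP5G3, COX7A2L and NDUFS1 lie on chromosome 2, where the tested genes outside the set had medians of -0.246 in Dex and -0.301 in vehicle. ATP5I, on chromosome 4, had neighbours at 0.281 and 0.363. By contrast SDHB had neighbours at -0.0568 in Dex and 0.00889 in vehicle, and UQCRC2 had 0.0565 and -0.00828, so that these 2 genes were lower in S134A-GR cells in regions with medians near 0. DNA copy number was not measured here, and its part in these differences was not tested. For the response to Dex the same correlation was 0.179 in S134A-GR cells and 0.471 in WT-GR cells.

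**Figure D5:**
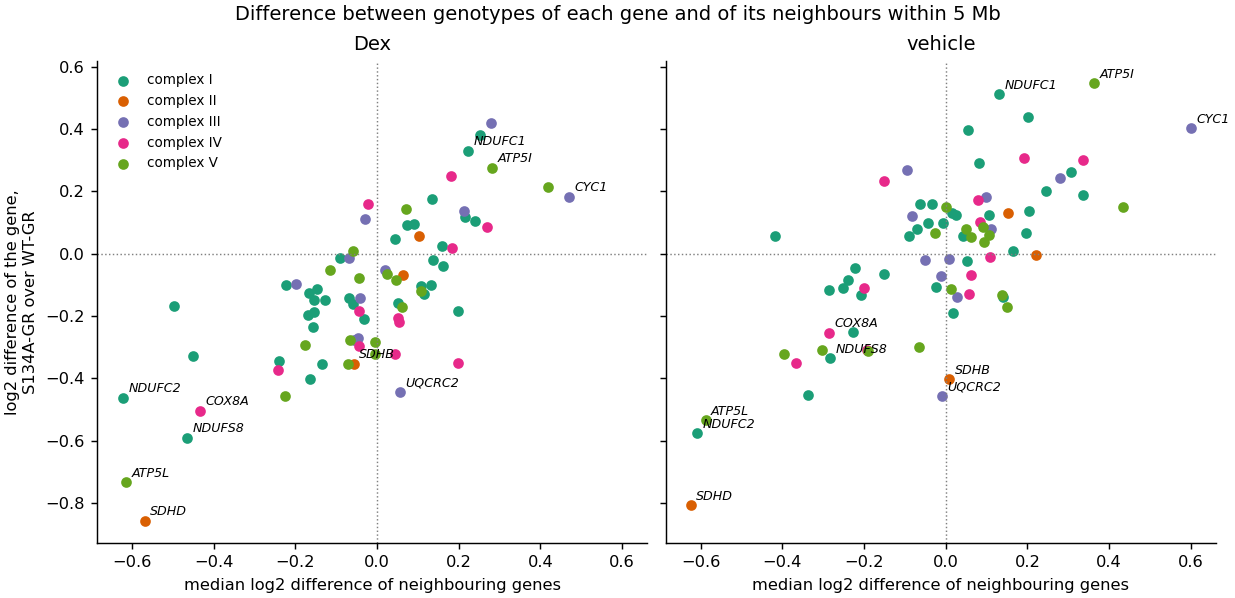
Log2 difference of each respiratory chain gene, S134A-GR over WT-GR, against the median difference of the other tested genes within 5 Mb, in Dex on the left and vehicle on the right; colours mark complexes and the 4 genes with very low counts are not drawn. SDHD, ATP5L and NDUFC2 lie at the lower left of both panels, while SDHB and UQCRC2 are low beside neighbours with medians close to 0.

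Assembly factors and regulators also differed between the genotypes. Of 49 assembly factors, 7 were higher and 15 lower in S134A-GR Dex (44.9% called, against 49.7% of all genes). In S134A-GR vehicle 11 were higher and 10 lower (42.9% called, against 50.5% of all genes). TMEM126B, a complex I assembly factor, differed by -0.69 in Dex and -0.65 in vehicle (limma adjusted p = 2.08e-06 and 3.3e-06). With Dex, ESRRA averaged 3150 reads in S134A-GR and 5820 in WT-GR cells, and with vehicle 2732 in S134A-GR and 4472 in WT-GR cells (log2 differences -0.88 and -0.71). TFB1M, a mitochondrial rRNA methyltransferase, differed by -0.69 and -0.63. GPD2, the mitochondrial glycerol phosphate dehydrogenase that feeds electrons to ubiquinone, differed by -0.49 and -0.68 (limma adjusted p = 9.3e-05 and 5.47e-06). Of the 15 other electron-transfer genes, 1 was higher and 4 lower in Dex (33.3% called, against 49.7% of all genes). In vehicle 5 of them were higher and 6 lower (73.3% called, against 50.5% of all genes). Of the 16 regulators, 3 were higher and 3 lower in Dex, and 3 higher and 5 lower in vehicle. Of 82 cytosolic ribosomal protein genes, 4 were higher, 56 lower and 22 not called in Dex, and 8 higher, 34 lower and 40 not called in vehicle, where 26.3 and 26.7% of all genes were called lower. Of the 77 mitochondrial ones, 6 were higher and 30 lower in Dex and 19 higher and 22 lower in vehicle.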

How the data were processed

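RNA-seq was made from MDA-MB-231 cells with S134A-GR or WT-GR, with Dex or vehicle, in 3 libraries a group, from TruSeq libraries read as 75-base pairs per the labels' protocols. The deposited files give a normalized signal for each gene, which the authors obtained by dividing read counts by a size factor. This was read from the values, of which 100% were whole multiples of 1 read within 0.01 reads in every library. FastQC 0.11.7, featureCounts, DESeq2 1.22.2 and hg38 are named in the submitters' processing notes. Aligner, annotation and strand setting were not given in the sources used here. Recovered depth averaged 85.2 M reads, and 58.2 to 67.5% of low counts were even, as when both mates are counted, so fragments may number fewer than reads.

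Dex files list 26485 names for 19907 values. Vehicle names were assigned by line: matched this way, r between a Dex library and the vehicle mean was 0.9816 to 0.9886 over genes, against -0.0056 to -0.0036 matched by name.

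The 15957 genes that reached 10 in 3 or more libraries were fitted with limma 3.58.1 (R 4.3.3, mean-variance trend) on log2(value + 1), all 12 libraries in 1 model with a mean per group. Tests were two-sided with Benjamini-Hochberg adjustment over all tested genes and a threshold of 0.05; a fold change on this scale understates that of low genes. The fit was also run on simulated counts with known changes. Those counts held no GC trends and no outlying libraries, so that run cannot show how calls depend on either. Alternatives were edgeR 4.0.16 and DESeq2 1.42.0 on recovered reads, other scalings, pseudocounts and filters, library weights, a replicate block, leaving out libraries, and removal of GC trends (added after the data were seen). GC content and positions came from GENCODE v29 (GRCh38) and promoters from RefSeq (GRCh38.p14). Genes with values were named by a rule: up to 3 called genes a direction per complex or list, the catalytic core and isoform families, and other genes named were chosen after their values were seen. The members, lists and tests were chosen with earlier results of these data known. Replicate numbers were not treated as pairs. Values of 1 member are not reported here.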

Additional observations from a re-analysis of the deposited data

How the results depend on the processing

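Over 180 values of named genes and 23 alternatives, 3819 of 4105 checks kept direction and side of the threshold, 168 lost the call, 117 gained one and 1 reversed: the vehicle difference of NDUFS7, 0.12 and not called, became -0.17 and called after GC trends were removed. The count of 18 genes for Dex in WT-GR cells became 7 with library-size scaling only (6 higher, 1 lower), 47 with library weights, 10 with no filter, 5 with only the compared groups fitted, 32 without WT-GR Dex replicates 2 and 3 together, and 6 to 37 without 1 library. For S134A-GR cells 0 became 2 with DESeq2, 3 with GC trends removed, 3 with library weights, 1 with no filter, 2 with only the compared groups fitted, 2 without WT-GR Dex replicates 2 and 3, and 0 to 2 without 1 library. For the difference of responses 0 became 2 with DESeq2, 24 with library weights, 12 without WT-GR Dex replicates 2 and 3, and 0 to 11 without 1 library. Between the genotypes in vehicle, 36 became 68 with library weights, which were uneven (11.19 for WT-GR vehicle replicate 2, 0.1999 for WT-GR Dex replicate 3). The cause of these shifts was not tested. Calls that passed under all 23 alternatives numbered 24 of 43 in Dex and 22 of 36 in vehicle. Deviations of same-numbered libraries correlated at -0.085 to 0.051, so no pairing by number was visible. Whether the cultures were paired is not stated in the labels, and these values do not settle it. With the replicate number as a replicate block, Dex calls numbered 0 in S134A-GR and 10 in WT-GR cells, the responses differed for 0 genes, and the genotypes differed for 42 genes in Dex and 33 in vehicle.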
